A study of Drosophila melanogaster with 9 samples.

Results

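The genes bicoid (bcd), knirps (kni) and hairy (hry, older symbol h) pattern the early Drosophila embryo, and their transcripts were followed here in mesodermal cells sorted well after segmentation had been laid down. The 3 genes were taken by name from the platform annotation and are represented by 4 of the 18769 probe sets tested, 3 genes of 11982 measured: bcd has a brighter probe set (1631463_a_at) and a dimmer one (1626502_s_at), kni has 1 (1629097_at) and hry has 1 (1624839_at). The members were picked from earlier results on the same arrays, in which they differed between genotypes, so their levels and differences are described with no test.

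Cells carrying green fluorescent protein were sorted by flow cytometry from suspensions of embryos at stage 11 or early stage 12, aged at 25 °C, and total RNA of each sample was hybridised to 1 Affymetrix Drosophila expression array, with 3 arrays in each of 3 groups. The CHES-1-like null embryos carried Df(1)CHES-1-like1, a deletion on the X chromosome, together with twi-GAL4 and UAS-2EGFP. The jumu deficiency embryos were homozygous for Df(3R)Exel6157, a deletion of a chromosome segment given in the labels as a null for jumu, and each homologue joined it to one transgene, twi-GAL4 on the one and UAS-2EGFP on the other. Control embryos were twi-GAL4 UAS-2EGFP, with neither deletion. The driver and reporter, which all groups share, place the fluorescent protein in cells that express Twist, a basic helix-loop-helix factor of the mesoderm. The study concerns the part of the Forkhead genes CHES-1-like and jumu in specifying cardiac progenitors.

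As background, segmentation of the fly embryo runs through a cascade in which maternal messengers set up gradients, gap genes read those gradients in broad domains, and pair-rule genes turn the domains into stripes. The mother deposits bcd messenger at the anterior pole, and its homeodomain protein activates anterior gap genes. The gene kni encodes a zinc-finger repressor related to nuclear receptors. It acts as a gap gene in the abdomen and later in the tracheal branches. The pair-rule gene hry encodes a basic helix-loop-helix repressor that recruits the corepressor Groucho, and it is used again in the formation of the salivary gland and of sense organs.

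Signals are on the log2 scale, and array medians lay between 5.42 and 5.51. Signals are not comparable from one probe set to another, so each gene is set against itself across groups. As an empirical background, the 95th percentile of 125 probe sets for odorant or gustatory receptors, 5.28, is called the receptor bound below. The targeted genes fitted their labels in direction. CHES-1-like read 4.04 ± 0.25 (SD, n = 3) in its null, 11.39 ± 0.21 in jumu deficiency cells and 12.00 ± 0.03 in controls. The other CHES-1-like probe set differed from controls by −1.80 in the null. The gene jumu read 8.13 ± 0.12 in its deficiency, still above the receptor bound, against 10.52 ± 0.06 in controls. Of 14 listed mesoderm markers 9 were measured, and all 9 had group means above the receptor bound in all 3 groups. The labels do not tell whether the replicates were separate embryo collections, and the spread behind every standard deviation and p-value is that between arrays and may be technical. In a sorted population, fewer cells that contain a transcript and less of it per cell cannot be told apart.

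The brighter bcd probe set was higher in CHES-1-like null cells and far lower in jumu deficiency cells than in controls. It read 8.94, 8.86 and 8.89 in CHES-1-like null cells. It read 5.58, 5.61 and 5.56 in jumu deficiency cells, and 8.13, 8.23 and 8.14 in controls. The 3 groups did not overlap: the nearest arrays of the CHES-1-like null and the controls lay 0.63 apart, and those of the jumu deficiency and the controls 2.52 apart. The mean difference from controls was 0.73 ± 0.04 (SE of the limma fit) in CHES-1-like null cells, a 1.66-fold signal, and −2.58 ± 0.04 in jumu deficiency cells, where the signal was 16.7% of that in controls. The mean of 5.58 in the deficiency stood only 0.30 above the receptor bound, so this difference may be understated. Groups that did not overlap were common over all probe sets: against controls 22.3% lay wholly higher and 20.4% wholly lower in CHES-1-like null cells, and 23.1% wholly lower in jumu deficiency cells, so the separation alone says little about the members. Of the 18769 probe sets, 22 had a lower difference than bcd in jumu deficiency cells and 265 had a higher one in CHES-1-like null cells.

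The dimmer bcd probe set showed the same order of the groups with a smaller spread between them. It read 6.58, 6.23 and 6.50 in CHES-1-like null cells. It read 5.17, 5.36 and 5.18 in jumu deficiency cells, and 5.97, 5.88 and 5.81 in controls. Its differences from controls were 0.55 ± 0.09 (SE) and −0.65 ± 0.09. The deficiency mean of 5.23 lay 0.05 below the receptor bound and the control mean only 0.60 above it. The −0.65 of the dimmer and the −2.58 of the brighter probe set disagreed in size and not in direction. The cause of the disagreement in size was not tested.

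For kni the order of the groups was again CHES-1-like null, control and jumu deficiency from high to low. Its signal was 9.55, 9.67 and 9.52 in CHES-1-like null cells. It was 7.96, 8.22 and 8.01 in jumu deficiency cells, and 8.81, 8.75 and 8.73 in controls. No array of one group reached another group's range, and the gaps to the controls were 0.71 and 0.51. The difference from controls was 0.81 ± 0.07 (SE) in CHES-1-like null cells, or 1.76-fold, and −0.70 ± 0.07 in jumu deficiency cells, or 61.4% of the control signal. All 3 group means stood at least 2.78 above the receptor bound. In CHES-1-like null cells 198 probe sets had a higher difference than kni, and in jumu deficiency cells 472 had a lower one.

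The pair-rule gene hry differed from the other members, because both mutants lay below the controls. It read 12.21, 12.24 and 12.22 in CHES-1-like null cells. It read 11.59, 11.79 and 11.58 in jumu deficiency cells, and 12.74, 12.71 and 12.75 in controls. The groups did not overlap, with gaps to the controls of 0.47 and 0.92. The differences from controls were −0.51 ± 0.06 (SE), or 70.2% of the control signal, and −1.08 ± 0.06, or 47.2%. In CHES-1-like null cells 667 probe sets had a lower difference than hry, and in jumu deficiency cells 168 did. These comparisons share the control arrays.

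**Figure D1:**
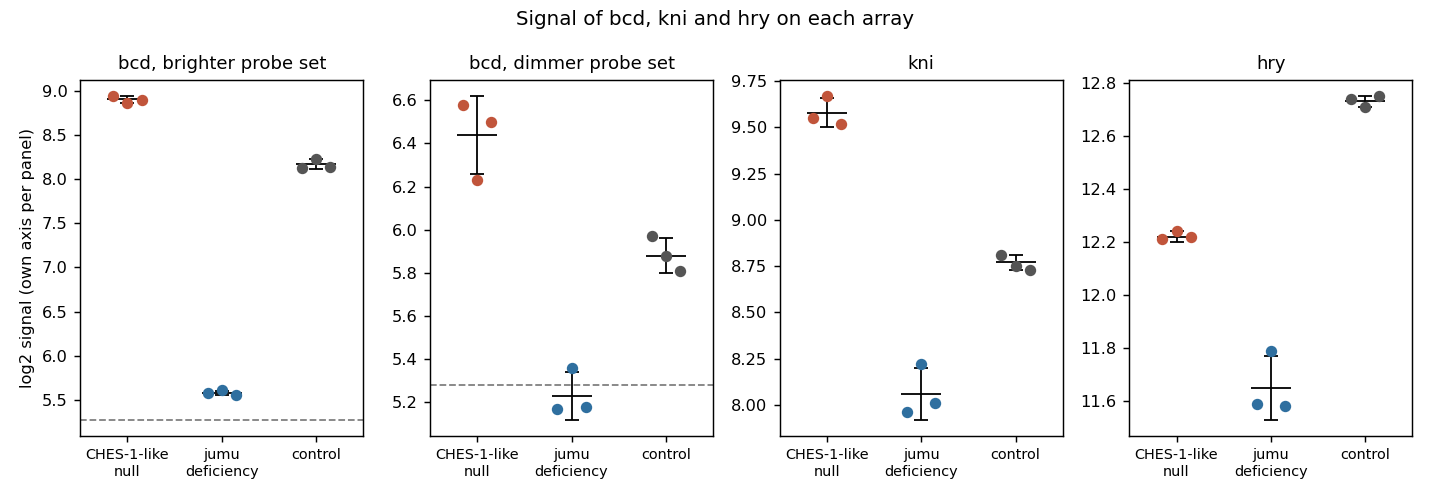
Log2 signal (y axis, own scale per panel) of the brighter and dimmer bcd probe sets, kni and hry in CHES-1-like null cells, jumu deficiency and control groups (x axis). Points are arrays, bars the mean and SD of 3 arrays, and the dashed line the receptor bound of 5.28. The jumu deficiency is lowest in every panel, while the CHES-1-like null is highest for bcd and kni and lies between the other groups for hry.

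Set directly against each other, without the control arrays, the mutants differed for every member in the same direction. The jumu deficiency was lower than the CHES-1-like null by −3.31 ± 0.04 (SE) for the brighter bcd probe set, which is a 9.95-fold lower signal. The dimmer bcd probe set differed by −1.20 ± 0.09. For kni the difference was −1.52 ± 0.07, or 34.9%, and for hry it was −0.57 ± 0.06, or 67.3%. The smallest gap between arrays of the mutants was that of hry, at 0.42. Of all probe sets 21.8% lay wholly lower in this comparison.

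Within groups the arrays lay close together. The pooled SD over the groups was 0.04 for the brighter bcd probe set, 0.13 for the dimmer one, 0.10 for kni and 0.07 for hry. Replicate 2 of the jumu deficiency was the highest array of its group in all 4 probe sets, by as much as 0.16 above the group mean for kni. Without it the difference from controls was −0.78 for kni and −1.15 for hry.

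**Figure D2:**
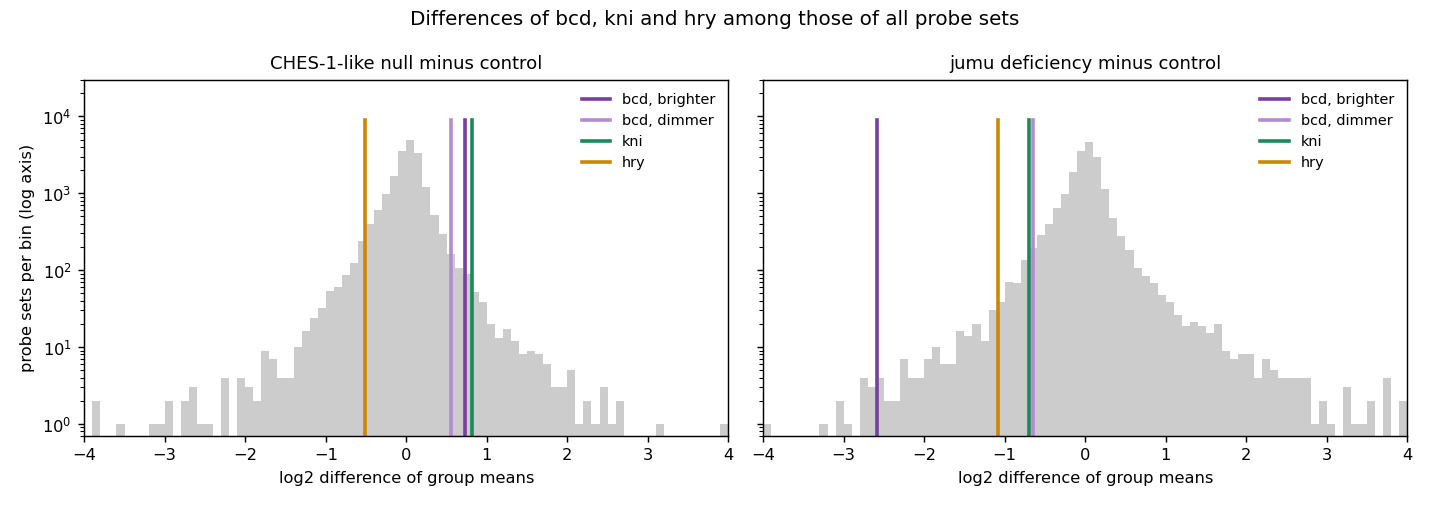
Number of probe sets (y axis, log scale) by log2 difference of group means (x axis, bins of 0.1) for the CHES-1-like null minus control and the jumu deficiency minus control. Coloured lines mark the members. In CHES-1-like null cells 3 probe sets and in jumu deficiency cells 24 lie beyond the plotted range, and bcd at −2.58 lies in the sparse lower tail of the jumu deficiency.

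The place of the members among other patterning genes was examined with 7 lists grouped by role, which hold 75 genes beside the members, 67 of them measured, each by its probe set of highest mean signal. These genes were tested in the limma fit over all probe sets, with a Benjamini-Hochberg adjusted p under 0.05 as the threshold. The lists were chosen with earlier results of these arrays known, and all probe sets include dim ones. Some of the listed genes that were called also had means below the receptor bound. The counts are therefore a description, and whether they exceed the shares of all probe sets was not tested. In CHES-1-like null cells 32 of the 67 rose and 4 fell, against 14.0% higher and 14.9% lower among all probe sets, and their median difference was 0.16 against 0.03. In jumu deficiency cells 13 rose and 23 fell, against 14.8% and 17.3%, with a median of −0.03 against 0.02. Between the mutants, jumu deficiency minus CHES-1-like null, 9 were higher and 34 lower, against 16.9% and 17.5%, with a median of −0.13 against 0.00. The same shares of all probe sets stand beside the counts of the single lists that follow. After centring each array on its median, the jumu deficiency had 7 higher and 23 lower listed genes, which puts 23.3% of the calls on the higher side in place of 36.1%. Over all probe sets the same centring put 39.4% of the calls on the higher side in place of 48.5% in CHES-1-like null cells, and 31.4% in place of 46.1% in jumu deficiency cells.

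Of the maternal genes that act with bcd along the body axis and at the termini, 4 of 11 rose and 1 fell in CHES-1-like null cells, and 2 rose and 3 fell in jumu deficiency cells. The receptor tyrosine kinase gene torso (tor), which specifies the termini, read 6.80, 6.98 and 7.13 in CHES-1-like null cells, 4.69, 4.91 and 4.69 in jumu deficiency cells, and 5.99, 5.56 and 5.73 in controls. Its arrays lay in the order seen for bcd. It rose by 1.21 ± 0.12 (SE, limma adjusted p = 6.39e-05) in the null and changed by −0.99 ± 0.12 (adjusted p = 0.000191) in the deficiency, where its mean of 4.76 was below the receptor bound. The gene swallow (swa), needed to localise bcd messenger in the oocyte, changed by −0.87 ± 0.10 in the deficiency (adjusted p = 0.000155) and had a difference of 0.21 ± 0.10 in the null that did not pass (adjusted p = 0.178). The posterior determinant nanos, also a germ cell gene, rose in both mutants, by 1.80 ± 0.11 in CHES-1-like null cells and 0.78 ± 0.11 in jumu deficiency cells, with a control mean of 4.87 below the receptor bound. The translational repressor gene pum rose by 0.42 ± 0.07 in the null and changed by −0.23 ± 0.07 in the deficiency, but its other probe set did not pass in either, at 0.07 and 0.18.

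Among the gap and head gap genes other than kni, 6 of 11 rose and 1 fell in CHES-1-like null cells, and 4 rose and 5 fell in jumu deficiency cells. The closest relative of kni, knirps-like (knrl), encodes a similar zinc-finger protein and lies near it on chromosome arm 3L. It read 7.47, 7.39 and 7.36 in CHES-1-like null cells, 6.26, 6.45 and 6.36 in jumu deficiency cells, and 7.77, 7.70 and 7.69 in controls. Unlike kni, knrl fell in both mutants, by −0.31 ± 0.06 (SE, limma adjusted p = 0.00245) in the null and −1.36 ± 0.06 (adjusted p = 1.58e-07) in the deficiency. The terminal gap gene hkb rose by 0.28 ± 0.05 in the null and changed by −0.70 ± 0.05 in the deficiency. The gap gene Kr rose by 0.41 ± 0.06 in the null, and its difference of −0.01 ± 0.06 in the deficiency did not pass (adjusted p = 0.887). The head gap gene btd rose in both, by 0.30 ± 0.05 and 0.42 ± 0.05. The head gene cnc rose by 0.32 ± 0.05 and 0.19 ± 0.05, while its other probe set did not pass in either, at −0.14 and −0.11.

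Of the pair-rule genes other than hry, 4 of 8 rose and 0 fell in CHES-1-like null cells, and 1 rose and 4 fell in jumu deficiency cells. The nuclear receptor gene ftz-f1, a partner of Ftz, rose by 1.11 ± 0.06 (SE, limma adjusted p = 1.62e-06) in the null, while its difference in the deficiency, 0.02 ± 0.06, did not pass (adjusted p = 0.802). Its other probe set disagreed, with 0.43 in the null, which did not pass, and a fall of −1.56 in the deficiency. The zinc-finger gene opa read 9.79, 9.80 and 9.76 in CHES-1-like null cells, 8.77, 9.12 and 8.84 in jumu deficiency cells, and 9.32, 9.30 and 9.28 in controls. It rose by 0.48 ± 0.08 in the null and changed by −0.39 ± 0.08 in the deficiency. The paired-box gene prd and the zinc-finger gene odd showed the same order, at 0.40 ± 0.11 and 0.34 ± 0.07 in the null and −0.62 ± 0.11 and −0.22 ± 0.07 in the deficiency, although prd lay below the receptor bound in the deficiency and in controls. No gene of this list fell in both mutants by the test. The genes eve, ftz, slp2 and Ten-m did not pass in the null, and in the deficiency ftz changed by −0.32 ± 0.07 while the teneurin gene Ten-m rose by 0.32 ± 0.05.

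Genes of the dorsoventral axis, which act beside the segmentation cascade, gave 9 of 16 higher and 1 lower in CHES-1-like null cells and 3 each way in jumu deficiency cells. The mesoderm determinant sna rose by 0.13 ± 0.04 (SE, limma adjusted p = 0.0473) in the null and changed by −0.79 ± 0.04 (adjusted p = 1.04e-06) in the deficiency. The Toll ligand gene spz rose by 0.23 ± 0.07 and 1.37 ± 0.07, and the Dorsal inhibitor gene cact by 0.52 ± 0.04 and 0.19 ± 0.04, though the other cact probe set did not pass. The sulfotransferase gene pip, with 10 probe sets, rose by 0.78 ± 0.06 in the null, where 5 of its other probe sets also rose. Its −0.10 ± 0.06 in the deficiency did not pass (adjusted p = 0.21), while 3 of its other probe sets fell there. The gene dl, which encodes the Dorsal gradient protein, changed by −0.77 ± 0.06 and −0.54 ± 0.06, with both mutant means, 4.74 and 4.97, below the receptor bound. Its other probe set fell in the null, at −0.24, and did not pass in the deficiency, at −0.07.

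Of the listed cofactors 1 of 5 rose in CHES-1-like null cells and 1 of 5 fell in jumu deficiency cells. In jumu deficiency minus CHES-1-like null 4 of the 5 were lower, zld by −0.39, CtBP by −0.51, Sirt1 by −0.22 and Chi by −0.13, with limma adjusted p between 0.000115 and 0.0255. All 5 lay wholly higher in null cells than in controls, as did 22.3% of all probe sets. The pioneer factor gene zld rose by 0.39 ± 0.05 (SE, limma adjusted p = 0.000187) in the null. The gene CtBP, whose product is a corepressor used by Knirps, changed by −0.40 ± 0.06 (adjusted p = 0.000756) in the deficiency, and its other probe set also fell, by 0.38 on the log2 scale. The Hairy corepressor gene gro had differences of 0.09 ± 0.04 in the null and 0.04 ± 0.04 in the deficiency, neither of which passed (adjusted p = 0.193 and 0.599). The deacetylase gene Sirt1, another partner of Hairy, had 0.12 ± 0.05 and −0.09 ± 0.05, and the Bicoid partner gene Chi 0.11 ± 0.04 and −0.03 ± 0.04, again without passing.

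Among 6 relatives of kni and hry, 4 rose and 1 fell in CHES-1-like null cells, and 0 rose and 4 fell in jumu deficiency cells. The Hairy-related gene Hey, a target of Notch signalling, read 8.19, 8.18 and 8.13 in CHES-1-like null cells, 7.11, 7.19 and 7.08 in jumu deficiency cells, and 8.07, 7.99 and 7.93 in controls. It rose by 0.16 ± 0.05 (SE, limma adjusted p = 0.0354) in the null and changed by −0.88 ± 0.05 (adjusted p = 1.32e-06) in the deficiency. The neuroblast gene dpn, another Hairy-related repressor, rose by 0.29 ± 0.06 in the null and changed by −0.26 ± 0.06 in the deficiency. The dim gene Sidpn, whose means were all below the receptor bound, rose by 0.25 ± 0.06 in the null, and its 0.13 ± 0.06 in the deficiency did not pass (adjusted p = 0.177). None of these relatives of hry fell in both mutants by the test.

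Because bcd messenger is supplied by the mother, a list of other transcripts known from the oocyte was set beside it. Of its 11 measured genes 4 rose and 1 fell in CHES-1-like null cells, and 3 rose and 4 fell in jumu deficiency cells. The gene smaug (smg), whose RNA-binding product drives the clearance of maternal messengers, read 10.98, 10.96 and 10.84 in CHES-1-like null cells, 8.79, 8.83 and 8.74 in jumu deficiency cells, and 9.90, 9.80 and 9.90 in controls. It rose by 1.06 ± 0.05 (SE, limma adjusted p = 9.23e-07) in the null and changed by −1.08 ± 0.05 (adjusted p = 4.20e-07) in the deficiency. The Cdc25 phosphatase gene twe and the gene plu, which controls the early embryonic cycles, lay in the same order, with 1.17 ± 0.08 and 1.27 ± 0.09 in the null and −1.02 ± 0.08 and −1.11 ± 0.09 in the deficiency, where their means of 5.17 and 5.26 lay below the receptor bound. Other maternal transcripts did not follow that order. The RNA-binding protein gene BicC rose by 2.08 ± 0.09 (adjusted p = 1.90e-07) in the deficiency, with a control mean of 4.63, below the receptor bound, and its 0.11 ± 0.09 in the null did not pass (adjusted p = 0.433).

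**Figure D3:**
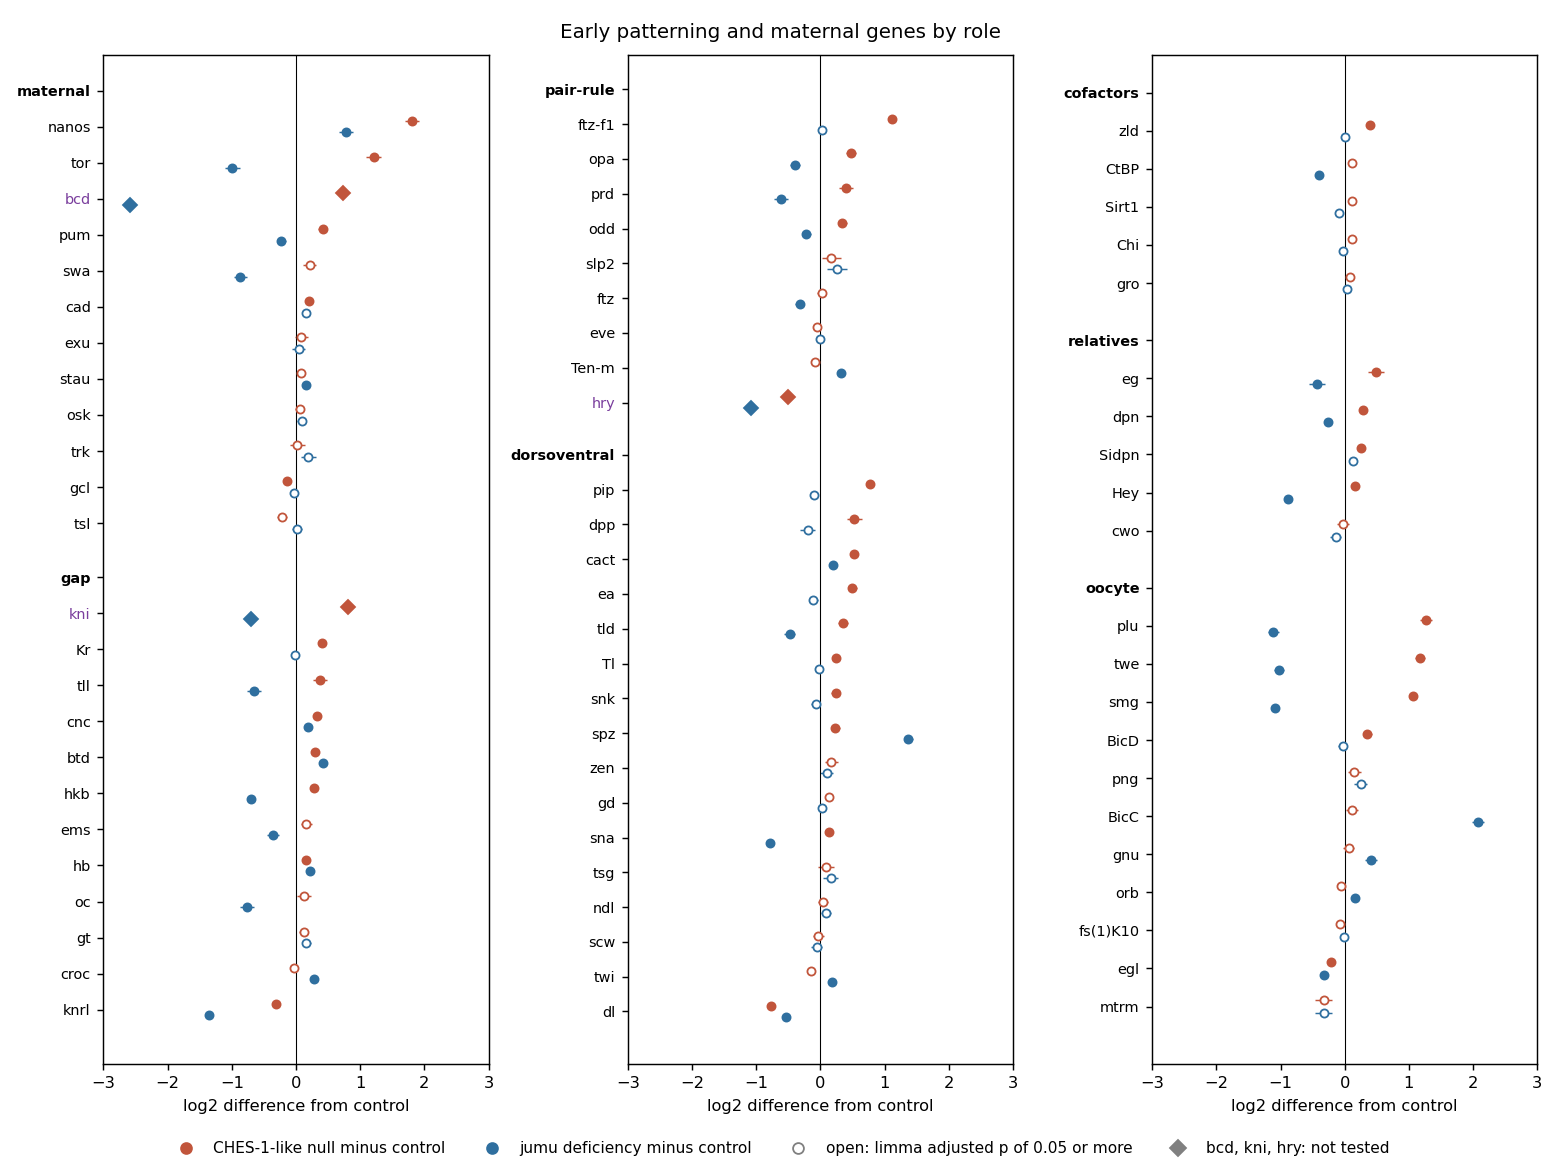
Log2 difference from control (x axis, mean with SE of the limma fit) of each measured gene, by role, in CHES-1-like null cells (red) and the jumu deficiency (blue). Filled circles passed a limma adjusted p of 0.05, open circles did not, diamonds are bcd, kni and hry, which were not tested, and knrl is drawn once under gap genes. In CHES-1-like null cells 32 of the 67 tested genes rose, and in jumu deficiency cells 23 fell. The lists were chosen with earlier results of these arrays known.

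Markers of other cell types moved in the same arrays. Over all probe sets 14.0% were called higher and 14.9% lower in CHES-1-like null cells, and 14.8% and 17.3% in jumu deficiency cells. The marker counts below stand beside these shares, and the marker lists too were chosen with earlier results known. Of 9 epidermis markers 8 rose and 0 fell in CHES-1-like null cells, while 0 rose and 4 fell in jumu deficiency cells. Their summed linear signal was 15964 to 16385 in CHES-1-like null cells, 9423 to 9471 in jumu deficiency cells and 10765 to 11002 in controls, and none had a group mean below the receptor bound. By this sum the order of the groups was that of bcd and kni. In jumu deficiency cells, however, 5 of the 9 epidermis markers did not pass, and the list's median difference from controls was −0.04. Of 12 neural and glial markers 8 rose and 0 fell in the null, and 3 rose and 6 fell in the deficiency, with sums of 17823 to 18507, 13707 to 16412 and 15626 to 15991 in the same order of groups and none below the bound. The part of these cell types in the levels of bcd, kni and hry was not tested.

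Germ cells, which inherit maternal messengers, were examined beside bcd. Of 8 measured germ cell markers 4 rose and 2 fell in CHES-1-like null cells, and 1 rose and 4 fell in jumu deficiency cells. Their mean log2 signal was 7.69 to 7.85 in CHES-1-like null cells, 6.73 to 6.76 in jumu deficiency cells and 7.33 to 7.36 in controls, the order of bcd. Their summed linear signal, in which tud and gcl with the highest signals weigh most, was 3594 to 3786, 3104 to 3275 and 3520 to 3597. The piRNA pathway genes AGO3 and aub rose by 1.58 and 0.34 in the null and changed by −1.60 and −0.92 in the deficiency, and the germline gap junction gene zpg rose by 0.55 and changed by −0.23. The defining germ cell gene vas was below the receptor bound in every group, at 4.68, 4.63 and 4.61. The piRNA pathway gene krimp fell in both mutants, by −0.71 in the null and −2.79 in the deficiency, where it was below the bound, and nanos was below it in controls. The part of germ cells in the bcd signal was not tested.

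Tracheal and salivary gland cells use kni and hry later in development. Of 7 trachea markers 5 rose and 0 fell in CHES-1-like null cells, and 1 rose and 2 fell in jumu deficiency cells. Their mean log2 signal was 8.69 to 8.78 in CHES-1-like null cells, 8.18 to 8.33 in jumu deficiency cells and 8.08 to 8.17 in controls, and their summed linear signal was 17981 to 18191, 14314 to 15855 and 16675 to 16906, with dysf below the receptor bound in all groups. Of 5 salivary gland markers 4 rose and 0 fell in the null, and 2 rose and 1 fell in the deficiency, with sums of 1241 to 1291, 856 to 913 and 894 to 944. The trachea mean was above and the sum below controls in the deficiency. There the FGF receptor gene btl alone rose, by 1.73, while vvl and rib fell by 0.51 and 0.16 on the log2 scale, and the list's median difference was −0.10. The sum is carried mostly by rib, with a mean of 13.89 over the arrays. Mesoderm markers ran the other way: 0 of 9 rose and 5 fell in the null, and 7 rose and 1 fell in the deficiency, with mean log2 signals of 9.74 to 9.79, 10.39 to 10.40 and 10.07 to 10.10 and sums of 15387 to 15626, 19050 to 19362 and 18789 to 19227. The part of these shifts in the members' levels was not tested.

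**Figure D4:**
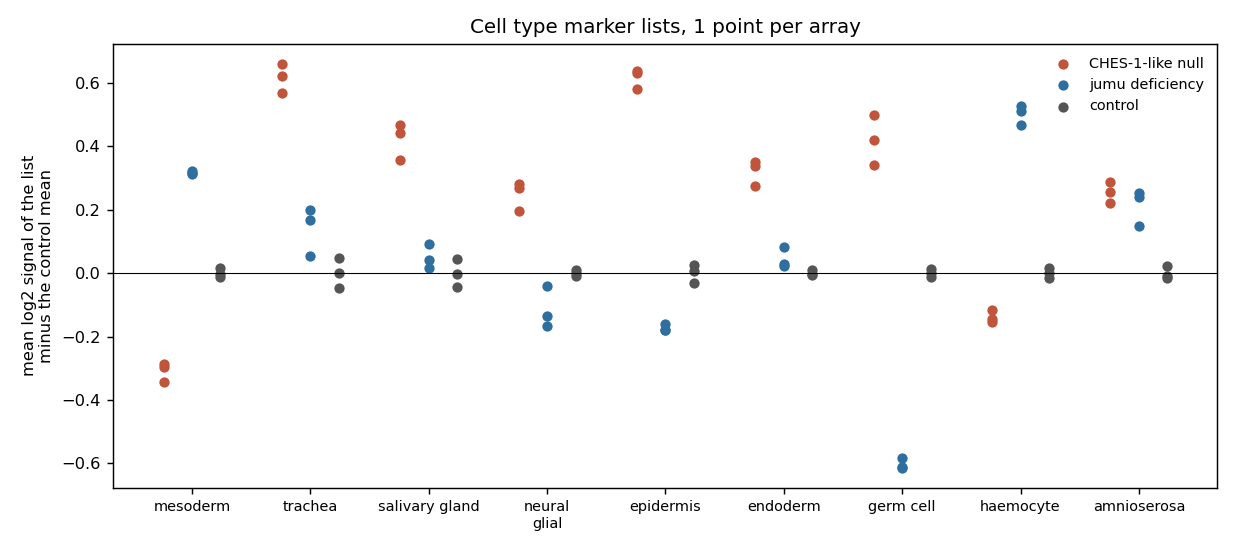
Mean log2 signal of each cell type marker list minus its control mean (y axis), 1 point per array, for the CHES-1-like null, the jumu deficiency and control (left to right within each list on the x axis). The epidermis list mean is above controls in CHES-1-like null cells and below them in jumu deficiency cells, where 5 of its 9 markers did not pass. The mesoderm list mean shows the opposite order.

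Endoderm markers gave 2 of 4 higher and 0 lower in CHES-1-like null cells and 1 higher and 0 lower in jumu deficiency cells. Haemocyte markers gave 3 of 9 higher and 3 lower in the null and 5 higher and 0 lower in the deficiency. Amnioserosa markers gave 3 of 6 higher and 0 lower in the null and 4 higher and 0 lower in the deficiency.

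RNA quality was read from array controls for the ends of single transcripts. For actin the 3′ minus 5′ log2 difference was 0.94 ± 0.06 in CHES-1-like null cells (SD, n = 3), 1.26 ± 0.03 in jumu deficiency cells and 1.04 ± 0.01 in controls. For eIF-4a the values were 1.15 ± 0.05, 1.35 ± 0.03 and 1.07 ± 0.07, for GAPDH 0.08 ± 0.25, 0.42 ± 0.16 and 0.34 ± 0.09, and for 18S ribosomal RNA 0.81 ± 0.11, 0.76 ± 0.05 and 0.95 ± 0.05. The jumu deficiency had the largest 3′ excess for actin and eIF-4a. For GAPDH it exceeded controls by less than the SD, and for 18S ribosomal RNA it had the lowest mean. The part of these differences in the signals of the members was not tested.

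Neighbouring genes were examined because 1 group carries a deficiency on the chromosome arm of bcd. The genes bcd and jumu both lie on 3R, with 409 measured genes between them, while kni and hry lie on 3L. Around bcd, in the Antennapedia complex, the nearest measured genes are the homeobox gene zen and the immunoglobulin-domain gene Ama. Their differences in jumu deficiency cells, 0.10 and −0.03, did not pass, nor did those of 0.17 and −0.11 in CHES-1-like null cells. Of the 10 nearest measured genes, 2 rose and 0 fell in CHES-1-like null cells, and 1 rose and 1 fell in jumu deficiency cells. Around kni the nearest are CG13251 and cmpy, at 0.02 and 0.03 in the null and 0.08 and −0.04 in the deficiency, with 0 of 10 rising and 3 falling in the null and 2 rising and 2 falling in the deficiency. The falls around kni include that of knrl in both mutants, given above. Around hry the nearest are the arrestin gene Arr2 and CG32022. Arr2 changed by −0.39 in the deficiency, and its −0.05 in the null did not pass, nor did CG32022 at −0.12 and 0.04. Of 10 genes around hry 1 rose and 1 fell in the null and 1 rose and 3 fell in the deficiency. Over all probe sets 14.0% were called higher and 14.9% lower in the null, and 14.8% and 17.3% in the deficiency. Counts this near those shares say little about the neighbours.

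The genes most alike in pattern were found by Pearson's correlation of log2 signal over the 9 arrays with every named probe set whose mean passed the receptor bound. The arrays fall into 3 tight groups, so a high correlation says that the group means stand in like proportion. For bcd the closest genes were Incenp, of the chromosomal passenger complex, with r = 0.9988, the cytochrome P450 gene Cyp6a23 with 0.9984, and the kinetochore gene Nnf1a with 0.9982. Incenp read 10.65 ± 0.02 (SD, n = 3) in CHES-1-like null cells, 9.85 ± 0.02 in jumu deficiency cells and 10.46 ± 0.02 in controls, so its differences of 0.19 and −0.61 were smaller than those of bcd in a like ratio. For kni they were the apical polarity gene crb with r = 0.9974, CG10939 with 0.9962 and CG5026 with 0.9958. The level of crb was 10.81 ± 0.04, 9.54 ± 0.10 and 10.09 ± 0.02 in the same order of groups. For hry they were the histone demethylase gene Kdm5 with r = 0.9965, thw with 0.9949 and CG14561 with 0.9931. Of these, thw had the larger differences, −2.69 in the null and −5.40 in the deficiency. A correlation over 0.99 was reached with bcd by 59 of 8335 probe sets (0.708%), with kni by 27 of 8336 (0.324%) and with hry by 8 of 8336 (0.096%). Over 0.95 the numbers were 419, 430 and 177.

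**Figure D5:**
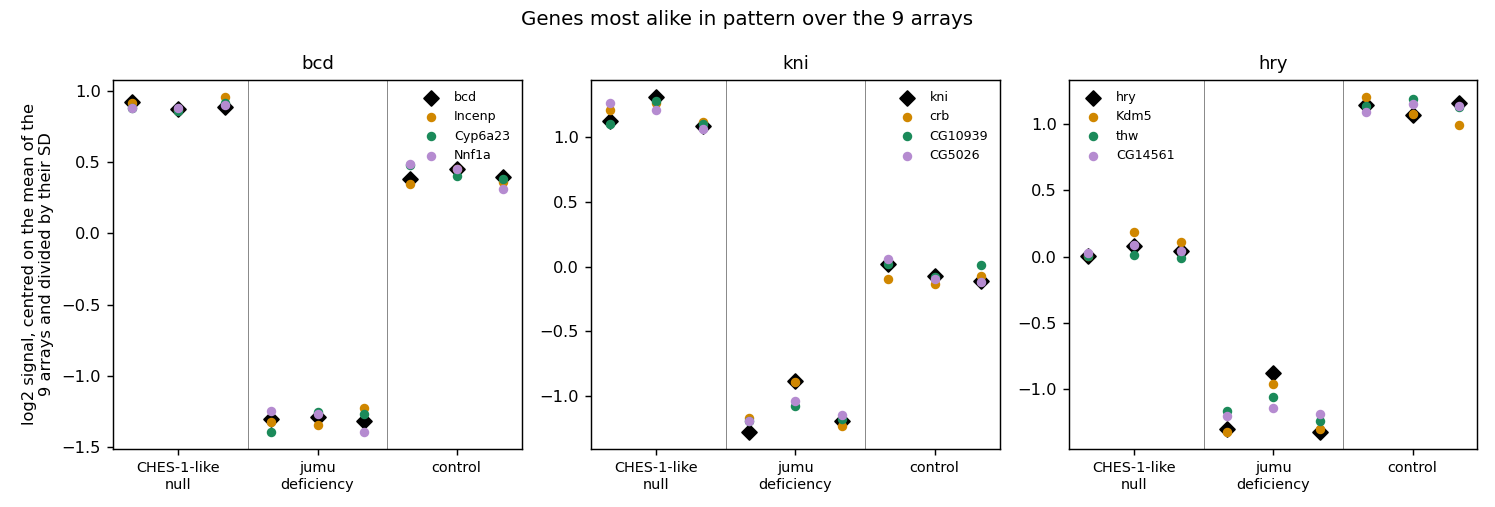
Log2 signal of each member (diamonds) and its 3 most alike genes (circles), centred on the mean of the 9 arrays and divided by their SD (y axis), for the 3 arrays each of the CHES-1-like null, jumu deficiency and control groups (x axis). The profiles of bcd and kni are highest in CHES-1-like null cells, and that of hry is highest in controls.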

How the data were processed

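The authors deposited one log2 signal for each probe set and array. Per the submitters' processing notes the R package affy was used; background correction, summary method and filters are not stated in what was used here. Array medians lay close together. Summarised signals can flatten near background, so differences of dim genes may be understated, and 3 arrays in a group set the precision.

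From 18952 probe sets the 183 array controls were dropped. The platform annotation gave 1 gene for 13647, several for 402 and did not list 4720. Symbols of 13544 were updated by gene identifier to Release 6 plus ISO1 MT, used only for names and gene order. A gene is represented by its probe set of highest mean.

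A limma model (version 3.58.1, R 4.3.3, lmFit and eBayes) was fitted to all 9 arrays, leaving 6 residual degrees of freedom, with Benjamini-Hochberg adjustment over all probe sets. It was tested on simulated data. The members and lists were chosen with earlier results of these data known. Genes named beside the members are the 3 of smallest p per role list and comparison with control, the nearest neighbours and the 3 most alike genes. Also named, with values already seen, are eve, ftz, slp2 and the marker genes given with values.

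Alternatives were quantile normalization, centring, dropping the dimmest 40% of probe sets, the replicate number as a block, fitting 2 groups at a time, a trended variance with robust eBayes, array weights, averaging a gene's probe sets, a threshold of 0.01 and leaving out each array. Replicate numbers gave no sign of pairing the arrays. Deviations from group means correlated between −0.14 and 0.15 for arrays of one number, and between −0.25 and 0.21 for arrays of different numbers.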

Additional observations from a re-analysis of the deposited data

Results flagged for a closer look

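For bcd and kni every array of the CHES-1-like null lay above every control array and every array of the jumu deficiency below them. The jumu deficiency minus CHES-1-like null difference was −3.31 for the brighter bcd probe set, −1.20 for the dimmer one and −1.52 for kni. This difference was not tested for these genes.

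The same placement of all arrays held for 1041 of all 18769 probe sets (5.55%) and for 19 of the 67 listed genes (28.4%). These shares are not like for like. The listed genes were chosen with earlier results known. They are read by their brightest probe sets, some of which lay below the receptor bound, while all probe sets include every dim one. Among the 31 genes named from the lists, which were taken for their small p against control, it held for 14. Of these, 12 were called in both comparisons with control, while pip did not pass in the deficiency and CtBP did not pass in the null. The differences between the mutants are given for the 14 genes as a description, since the placement of the arrays picked the genes. Among maternal genes the difference was −2.20 for tor and −0.65 for pum, whose other probe set went the other way, at 0.11. For the gap gene hkb it was −0.98, and for the pair-rule genes opa, odd and prd it was −0.87, −0.56 and −1.02. The dorsoventral genes pip and sna had −0.88 and −0.92, the cofactor gene CtBP −0.51, and the Hairy-related genes dpn and Hey −0.55 and −1.04. The oocyte transcripts smg, twe and plu had −2.14, −2.20 and −2.38. In jumu deficiency cells the means of tor, prd, twe and plu lay below the receptor bound.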

How the results depend on the processing

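No alternative run here turned the direction of a bcd, kni or hry difference. With the mean of a gene's probe sets, bcd gave 0.64 in CHES-1-like null cells, −1.62 in jumu deficiency cells and −2.26 between the mutants, since the dimmer probe set enters, and with each array centred it gave −2.64 in jumu deficiency cells. Leaving out each array in turn, bcd ranged over 0.71 to 0.76, −2.60 to −2.55 and −3.33 to −3.29 in the same order of comparisons, kni over 0.77 to 0.84, −0.78 to −0.65 and −1.60 to −1.47, and hry over −0.52 to −0.50, −1.15 to −1.05 and −0.64 to −0.54. For the 67 listed genes, those higher in CHES-1-like null cells numbered 21 at an adjusted p of 0.01 in place of 32, and those lower 7 with a variance trend and robust estimation in place of 4. With each array centred, 7 were higher in jumu deficiency cells in place of 13. The causes of these shifts in counts were not tested, beyond the stricter threshold itself. Leaving out each array gave 23 to 32 higher and 3 to 5 lower genes in CHES-1-like null cells, 10 to 15 and 20 to 23 in jumu deficiency cells, and 7 to 9 and 33 to 35 between the mutants. Apart from leaving out arrays, 92 of 99 values under the alternatives stayed within 1 replicate SD, or for counts within 1.5-fold. The replicate block, a fit with the replicate number as a term, gave 29 higher and 4 lower genes in CHES-1-like null cells, 13 and 23 in jumu deficiency cells and 8 and 33 between the mutants, and left each member's difference as it was. Differences of dim genes may be limited by background: bcd in jumu deficiency cells lay within 0.30 of the receptor bound.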
